A study of Schmidtea mediterranea with 64 samples.

Results

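The X1 cells of *set1*(RNAi) planarians were compared between day 9 and day 6 of RNAi. They were the 8 *set1*(RNAi) X1 libraries, 4 of each day, among the 64 samples of the series, and they were chosen by their labels alone. Every transcript with a mean of at least 1 RPKM over the 16 X1 libraries of the *set1* experiment was followed, which kept 13503 of the 18845 transcripts listed. RPKM is the number of reads on a transcript divided by its length in kilobases and by the size of the library in M reads, where M stands for mega. The animals were adult *Schmidtea mediterranea* that ate dsRNA-producing bacteria mixed with liver paste, and the dsRNA was against *set1* or, in the controls of the same days, against *unc22*, a non-targeting sequence. X1 cells were sorted by flow cytometry after Hoechst staining, and poly(A) RNA was sequenced. Of the other samples, 16 whole-worm libraries came from the same 2 RNAi treatments and days, and 32 libraries came from a separate *mll1/2* RNAi experiment with its own *unc22*(RNAi) controls at days 9 and 12. The labels do not say whether the replicates of a group came from separate worms or sorts, so the p-values measure only the spread between these libraries, which may be technical. The column names of the X1 table carry a treatment, a day and a number but are spelled as the whole-worm samples, so they give a library's group and not which X1 sample it is, and the libraries of a group are called a to d.

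X1 is the fraction of dissociated planarian cells with a replicated DNA content. It is lost after irradiation and consists largely of cycling neoblasts, the adult stem cells from which all other planarian cell types are renewed. Set1 and Mll1/2 belong to the SET-domain methyltransferases of COMPASS-like complexes, which place methyl groups on lysine 4 of histone H3, a mark found at the starts of transcribed genes. RNAi by feeding lowers a gene product over days as existing RNA and protein turn over, and the comparison between days addresses how the X1 transcript pool moved on after its state at day 6. The files do not pair transcript IDs with gene names, so neither the level of *set1* itself nor any named marker of neoblasts or of other cell types is given here. Only 4 transcripts, the 2 largest rises and the 2 largest falls, are therefore called by their IDs.

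The *set1*(RNAi) X1 libraries held 13.39 to 15.51 M reads in transcripts at day 6 and 15.2 to 18.28 M at day 9, and the *unc22*(RNAi) X1 libraries held 12.62 to 17.47 M. On the first principal component of the 16 libraries, which carried 40.2% of the variance, the day 9 *set1*(RNAi) libraries lay between -44.8 and -39.6, the day 6 *set1*(RNAi) libraries between -19.5 and -10.4, and the control libraries of both days between 19.4 and 34.8. The 3 ranges did not overlap. The second component, with 15.7% of the variance, moved with how strongly a library favoured long transcripts. Day 6 library d and day 9 library c of *set1*(RNAi) were the highest of their groups on it, so the counts of calls are also given without them.

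Between day 6 and day 9, the transcript pool of *set1*(RNAi) X1 cells changed broadly while that of the control cells moved little. Of the 13503 transcripts, 2606 passed the test in *set1*(RNAi) cells (limma, Benjamini-Hochberg adjusted p below 0.05), which is 19.3%. They were 1062 higher at day 9 (7.86%) and 1544 lower (11.4%). In *unc22*(RNAi) cells of the same days, 20 transcripts passed (0.148%), and all 20 were lower at day 9. At an unadjusted p below 0.05 there were 4419 in *set1*(RNAi) and 1547 in *unc22*(RNAi) cells. The median size of a change, over all transcripts tested, was 0.23 on the log2(RPKM + 0.5) scale after *set1*(RNAi) and 0.13 in the controls, and the size exceeded by 10% of transcripts was 0.64 against 0.40. The difference between the *set1*(RNAi) and the *unc22*(RNAi) day change, tested as an interaction, passed for 783 transcripts (5.8%), 312 of them in the upward (2.31%) and 471 in the downward direction (3.49%).

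**Figure D1:**
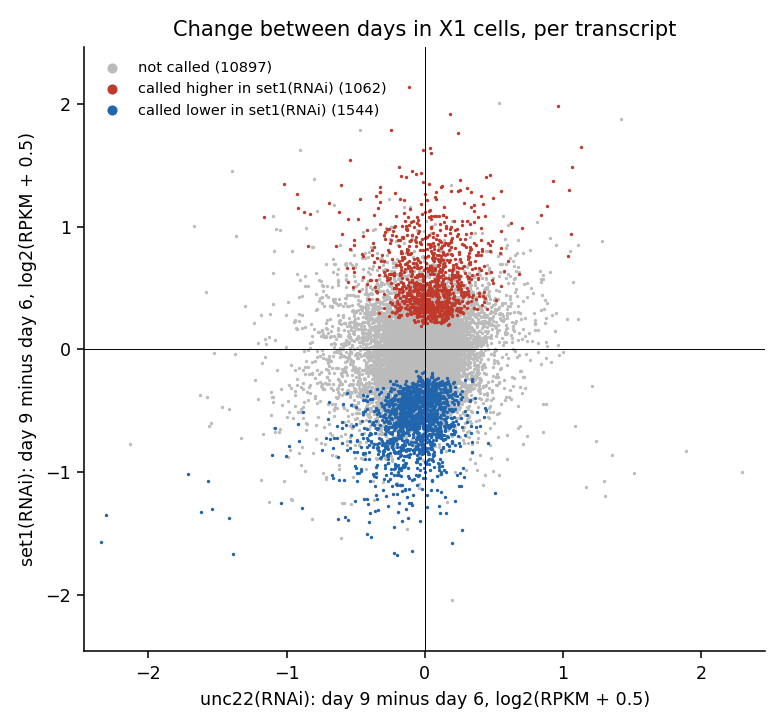
Each point is 1 of the 13503 transcripts, with its day 9 minus day 6 change in *unc22*(RNAi) X1 cells on the x axis and in *set1*(RNAi) X1 cells on the y axis, both in log2(RPKM + 0.5). The 1062 transcripts called higher and the 1544 called lower after *set1*(RNAi) spread up and down the y axis while most stay near 0 on the x axis, and a few of the lower ones also lie far to the left.

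Most of these changes were modest in size. The median change of a called transcript was 0.52 on the log2 scale for those that rose and 0.54 in size for those that fell, and 112 rises and 114 falls reached at least 2-fold. All 4 day 9 libraries lay above all 4 day 6 libraries for 1611 of the transcripts tested and below them for 2091, or 11.9% and 15.5%, together 27.4%. The corresponding share in the controls was 4.76%. Without day 6 library d and day 9 library c, 703 rises and 1057 falls passed. Leaving out day 9 library a gave 667 rises and leaving out day 9 library b gave 680, and the interaction count was 500 without day 6 library c, 477 without day 9 library a and 448 without day 9 library b.

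Whether rises or falls were in the majority depended on the scaling. With the RPKM values as deposited, rises made up 40.8% of the calls. Their share was 58.6% after the libraries were scaled to a common median, 54.6% after quantile normalisation and 50.9% when the recovered reads were fitted with voom. Of the 1062 rises, 1062, 1054 and 1021 passed again in the same direction under these 3 scalings, and of the 1544 falls 1001, 1326 and 1242 did.

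In the median, the transcripts that rose stood near the control level at day 6. Their median level in *set1*(RNAi) cells went from 9.06 RPKM at day 6 to 13.4 RPKM at day 9, beside 9.01 and 9.75 RPKM in *unc22*(RNAi) cells. In log2 terms they differed from *unc22*(RNAi) by a median of 0.05 at day 6 and 0.49 at day 9. Single rises could differ earlier. Of the 6 largest, described below, 5 were called above *unc22*(RNAi) at day 6, and the 6 differences were 0.34 to 2.57. The transcripts that fell were already somewhat low at day 6, with a median of 20.5 RPKM against 24.3 RPKM in the controls, and went to 13.6 RPKM at day 9 against 23.8 RPKM. The corresponding medians were -0.23 and -0.71. These differences share the *set1*(RNAi) libraries with the comparison that chose the transcripts and are given as a description. By library, the medians of the rising transcripts against the control mean lay between 0.42 and 0.57 in the 4 day 9 libraries, with library c the lowest. Those of the falling transcripts lay between -0.76 and -0.68 at day 9 and between -0.25 and -0.16 at day 6. The control day change, which uses none of these libraries, had a median of 0.04 over the rising and -0.06 over the falling transcripts, beside -0.02 over all transcripts tested.

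**Figure D2:**
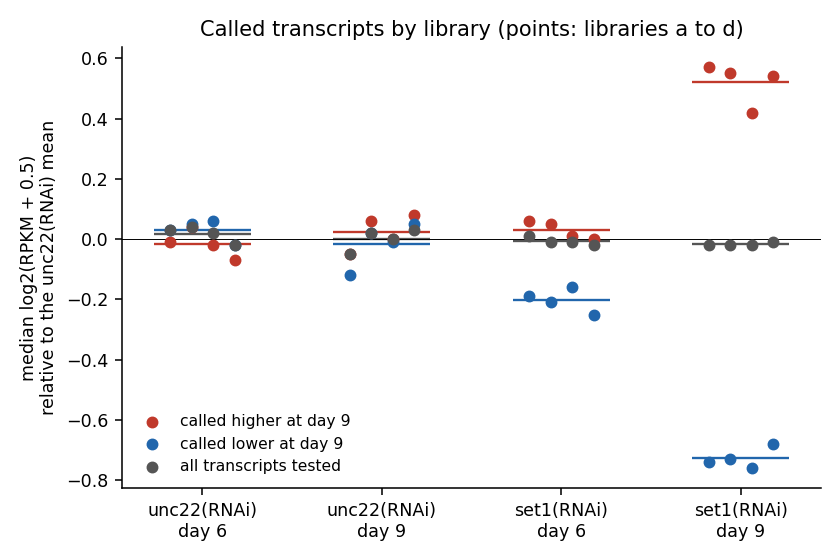
Points are the 16 X1 libraries by group, and each gives the median, over the transcripts called higher, called lower or tested, of log2(RPKM + 0.5) relative to the *unc22*(RNAi) mean. Short lines are the means of 4 libraries. The transcripts called higher leave the control level at day 9, between 0.42 and 0.57, while those called lower lie between -0.25 and -0.16 at day 6 and between -0.76 and -0.68 at day 9.

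The largest rise, among called transcripts without overlap of the groups and with a day 9 mean of at least 5 RPKM, was that of SMED30008091, a transcript of 863 bases. Its levels were 7.57, 8.72, 9.29 and 8.55 RPKM in day 6 libraries a to d and 38.7, 44.9, 38.9 and 34.6 RPKM at day 9. All day 9 libraries stood far above all day 6 libraries, with 464 to 630 reads each against 84 to 116. The change was 2.14 on the log2 scale (SE 0.12, limma adjusted p = 1.99e-08), and it differed from the control change of -0.11 (interaction 2.25, SE 0.17, adjusted p = 2.19e-06). The control means were 4.36 ± 0.335 RPKM at day 6 and 4.02 ± 0.667 RPKM at day 9 (SD, n = 4). At day 6 the *set1*(RNAi) level was already above the control, by 0.89 on the log2 scale (limma adjusted p = 5.99e-05). In the controls this transcript was far higher in the whole body than in X1 cells, with a mean of 105 RPKM in whole worms against 4.19 RPKM in X1 cells, the 2 tables having been normalised separately. In *set1*(RNAi) whole worms it rose as well, by 0.70 on the log2 scale (adjusted p = 6.32e-07).

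SMED30035655, of 461 bases, was close to undetected without *set1* RNAi. No read fell on it in any of the 4 control libraries of day 6, and 3 reads fell on it in 1 control library of day 9. In *set1*(RNAi) cells it had 1.52, 0.703, 0.600 and 1.68 RPKM in day 6 libraries a to d and 6.25, 5.36, 6.01 and 4.18 RPKM at day 9. The groups did not overlap, and the reads behind them were few, 4 to 12 per library at day 6 and 30 to 52 at day 9. The change was 1.92 on the log2 scale (SE 0.25, adjusted p = 9.53e-05), a 4.82-fold ratio of the mean RPKM.

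The other 4 of the 6 largest rises by this rule changed by 1.44 to 1.79 on the log2 scale with control changes of -0.25 to -0.01. A transcript of 2169 bases among them was near 0 in all 8 control libraries, at 0.191 RPKM or less, and had 2.80, 3.17, 3.22 and 3.19 RPKM at day 6 and 10.6, 9.44, 8.64 and 8.80 RPKM at day 9. It was thus present at day 6 and well above that at day 9, with a change of 1.45 (SE 0.17, adjusted p = 2.92e-05). At the other end of the scale stood a transcript of 664 bases with 70.8, 85.0, 76.7 and 85.6 RPKM at day 6 and 234, 237, 185 and 209 RPKM at day 9. Its control means were 63.4 and 61.6 RPKM, so it was moderately above the control at day 6 (0.34 on the log2 scale, adjusted p = 0.0482) and further above it at day 9. For all 6 largest rises the interaction passed the test, but it contains the *set1*(RNAi) change by which they were chosen. SMED30035655 and the transcripts of 363, 892 and 2169 bases among them had control X1 means of 0.0404, 0.794, 0.32 and 0.089 RPKM. These reached the filter of 1 RPKM only through higher *set1*(RNAi) levels, so their place among the rises was favoured by the filter.

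Among called falls without overlap of the groups and with a day 6 mean of at least 5 RPKM, the largest was that of SMED30004108, with 358 bases, and it was shared with the controls. Its levels in *set1*(RNAi) cells were 10.4, 8.33, 8.88 and 11.6 RPKM in day 6 libraries a to d and 3.26, 2.83, 2.53 and 2.33 RPKM at day 9, a change of -1.67 on the log2 scale (SE 0.21, adjusted p = 8.22e-05). In *unc22*(RNAi) cells it had 7.99, 6.52, 8.47 and 13.6 RPKM at day 6 and 2.08, 4.47, 2.65 and 3.47 RPKM at day 9, a change of -1.39 (adjusted p = 0.0155). The day 6 and day 9 libraries did not overlap under either treatment. The difference of the 2 day changes was -0.28 (SE 0.30, adjusted p = 0.641). In *set1*(RNAi) whole worms it fell by 1.39 on the log2 scale (adjusted p = 1.65e-07).

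SMED30018286, of 391 bases, fell in *set1*(RNAi) cells beyond the control change. It had 43.2, 48.9, 41.7 and 46.5 RPKM at day 6 and 14.4, 20.3, 10.8 and 11.8 RPKM at day 9, a change of -1.66 (SE 0.16, adjusted p = 5.70e-06). Its control means were 118 ± 16.3 and 101 ± 15.8 RPKM (SD, n = 4), so the *set1*(RNAi) libraries lay below every control library on both days. The interaction was -1.44 (SE 0.23, adjusted p = 0.00185). This transcript was more abundant in X1 cells than in whole worms, with control means of 110 and 8.37 RPKM. In whole worms its *set1*(RNAi) change was -0.11 and did not pass (adjusted p = 0.747).

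Of the other 4 of the 6 largest falls, 1 more was called in the controls. This transcript of 462 bases went from 7.25 to 1.90 mean RPKM after *set1*(RNAi), a change of -1.58 (adjusted p = 0.0103), and its control change was larger, -2.35 (adjusted p = 0.0262). The smallest SE among the 6 was that of a transcript of 912 bases, with 46.9, 43.0, 50.6 and 41.9 RPKM at day 6 and 16.6, 17.7, 16.4 and 17.0 RPKM at day 9. Its change was -1.40 (SE 0.10, adjusted p = 2.84e-07) against -0.03 in the controls. It was already low at day 6, since its control means were 131 and 128 RPKM. In *set1*(RNAi) whole worms it moved the other way, by 0.28 (adjusted p = 0.00785).

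**Figure D3:**
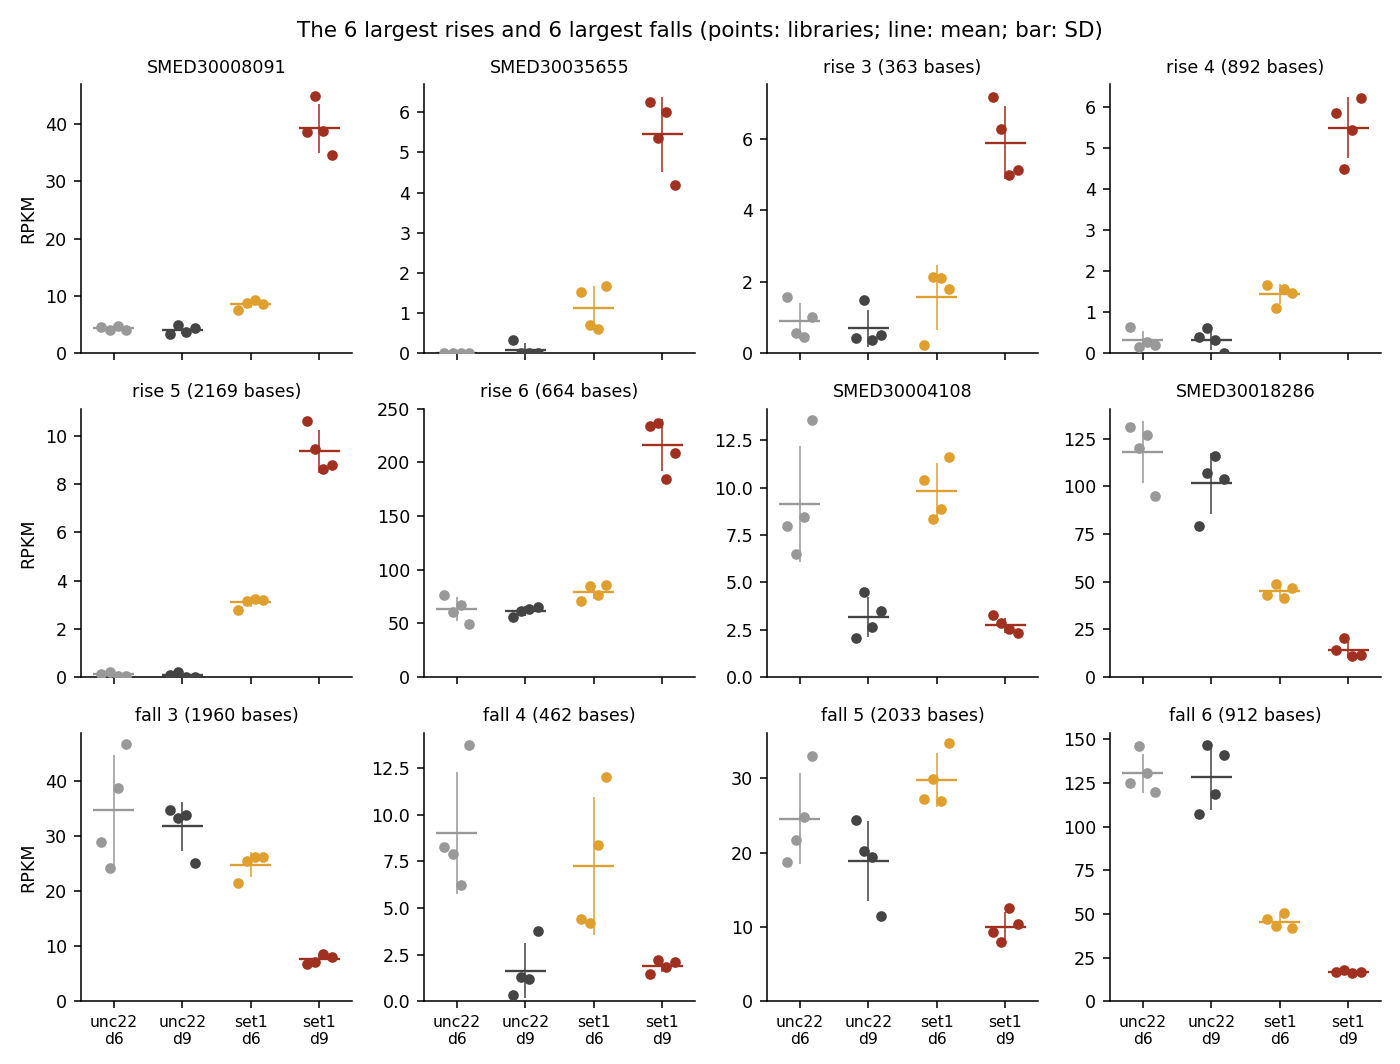
RPKM of the 6 largest rises and the 6 largest falls in each X1 library (points), with the mean (line) and SD (bar) of 4 libraries, for *unc22*(RNAi) and *set1*(RNAi) at days 6 and 9. Each y axis starts at 0 and has its own range. The rises go up in *set1*(RNAi) cells and their interaction passes the test, whereas falls 1 and 4 (SMED30004108 and a transcript of 462 bases) go down in the controls too.

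Changes of at least 2-fold also reached abundant transcripts. Among those, the 4 rises with the highest mean RPKM had day 6 means of 56.8 to 123 RPKM and day 9 means of 140 to 291 RPKM. A transcript of 911 bases had 105, 107, 103 and 116 RPKM at day 6 and 311, 312, 258 and 283 RPKM at day 9, a change of 1.43 (SE 0.11, adjusted p = 1.03e-06) against -0.06 in the controls. Another, of 315 bases, rose by 1.12 (adjusted p = 0.00257) after *set1*(RNAi), and its control change of -0.88 did not pass (adjusted p = 0.126). Its means went from 123 to 267 RPKM after *set1*(RNAi) and from 157 to 87.8 RPKM in the controls, so the control fall adds to its interaction. The nearest *set1*(RNAi) libraries were close, day 9 library a at 181 RPKM and day 6 library d at 171 RPKM. The interaction was 1.99 (SE 0.32, adjusted p = 0.00201).

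The 4 most abundant falls of at least 2-fold had day 6 means of 120 to 287 RPKM and day 9 means of 59.9 to 133 RPKM. All 4 were higher in control X1 cells than in control whole worms, by 1.88 to 3.20 on the log2 scale. The most abundant, of 672 bases, had 301, 266, 318 and 263 RPKM at day 6 and 127, 133, 132 and 140 RPKM at day 9, a change of -1.10 (SE 0.10, adjusted p = 3.96e-06). The control libraries lay far higher, at 573 to 693 RPKM on day 6 and 440 to 619 RPKM on day 9. A transcript of 1713 bases, by contrast, was close to the control at day 6, with 123, 116, 119 and 123 RPKM against 120, 133, 142 and 149 RPKM. It went to 62.0, 59.8, 59.7 and 58.0 RPKM at day 9, a change of -1.0 (SE 0.09, adjusted p = 2.43e-06), while the day 9 control mean was 137 RPKM. The interaction passed for all 4 of the rises and all 4 of the falls, which were chosen by the *set1*(RNAi) change that it contains. It passed for 256 of all 1062 called rises and for 456 of all 1544 called falls.

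Other transcripts were close to the control level at day 6. Of those within 0.2 of *unc22*(RNAi) on the log2 scale at day 6, the 3 largest rises changed by 1.04 to 1.15 and reached day 9 means of 5.19 to 8.25 RPKM, and the interaction passed for all 3. The 3 largest falls were SMED30004108, described above, whose difference from the controls was still -0.14 at day 9 (adjusted p = 0.635), and transcripts of 1737 and 1213 bases. The interaction passed for 1 of the 3 falls, and for the transcript of 1737 bases it was -0.96 (adjusted p = 0.165). The transcript of 1213 bases had 6.47, 6.04, 6.04 and 4.21 RPKM at day 6 and 2.71, 2.46, 1.36 and 1.86 RPKM at day 9, while the controls stayed between 5.03 and 6.45 RPKM on both days. Its change was -1.27 (SE 0.17, adjusted p = 0.000106), with an interaction of -1.17 (adjusted p = 0.00900). It was also lower than *unc22*(RNAi) after *mll1/2*(RNAi) in X1 cells at day 9, with a difference of -1.56 (adjusted p = 0.000103).

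Others differed from the controls at day 6 and moved in the opposite direction by day 9. The day 6 *set1*(RNAi) libraries enter both comparisons with opposite sign. An extreme day 6 value by chance therefore favours this choice, and the transcripts are given as a description. A transcript of 394 bases was below the controls at day 6, with 2.57, 1.81, 2.28 and 2.96 RPKM against 8.71, 7.14, 6.88 and 6.63 RPKM. By day 9 it had 5.74, 5.63, 5.0 and 5.22 RPKM, a rise of 1.04 (SE 0.19, adjusted p = 0.00100), and the controls had 5.67 to 12.6 RPKM. Its difference from the controls was still -0.54 at day 9 (limma adjusted p = 0.0274). Its interaction of 0.90 did not pass (adjusted p = 0.0527). In the other direction, a transcript of 573 bases stood at 10.2 to 12.6 RPKM at day 6 against 5.62 to 9.75 RPKM in the controls, and at 3.71 to 7.41 RPKM at day 9, a change of -1.22 (SE 0.21, adjusted p = 0.000616). Its difference from the controls at day 9 was -0.18 (limma adjusted p = 0.540). Its control change was -0.44 and the interaction of -0.78 did not pass (adjusted p = 0.123).

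Falls were frequent among transcripts concentrated in X1 cells, which were also abundant there. A list of 2289 transcripts whose control mean of RPKM + 0.5 was at least 4-fold higher in X1 cells than in whole worms held 427 falls and 97 rises, or 18.7% and 4.24%, beside 11.4% and 7.86% of all transcripts tested. All of its rises were under 2-fold, and 36 of its falls were at least 2-fold. The list was chosen on control libraries, and its median control X1 level was 51.1 RPKM, beside 8.61 RPKM over all transcripts tested. The upper classes of control X1 level, described below, held 18.1% and 18.4% falls, close to the share in this list, and 8.41% and 7.82% rises. With a filter of 5 RPKM, 21.2% of the list fell, beside 17.9% of all tested. The part of abundance in the share of falls was not tested. Of the 4456 transcripts at least 4-fold higher in whole worms, 2342 were tested, and 194 of them (8.28%) rose while 123 (5.25%) fell. Their median control X1 level was 2.52 RPKM, where the filter on low values matters most. The excess of rises depended on the setting. With a filter of 5 RPKM, 642 were tested, and 84 rose (13.1%) while 83 fell (12.9%). With array weights, 311 rose and 292 fell. The 8546 transcripts in neither list held 750 rises (8.78%) and 980 falls (11.5%). Seen from the calls, 27.9% of the falling and 9.32% of the rising transcripts were in the X1 list, against 17.4% of all tested, and 8.04% and 18.6% were in the whole-worm list, against 17.8%.

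**Figure D4:**
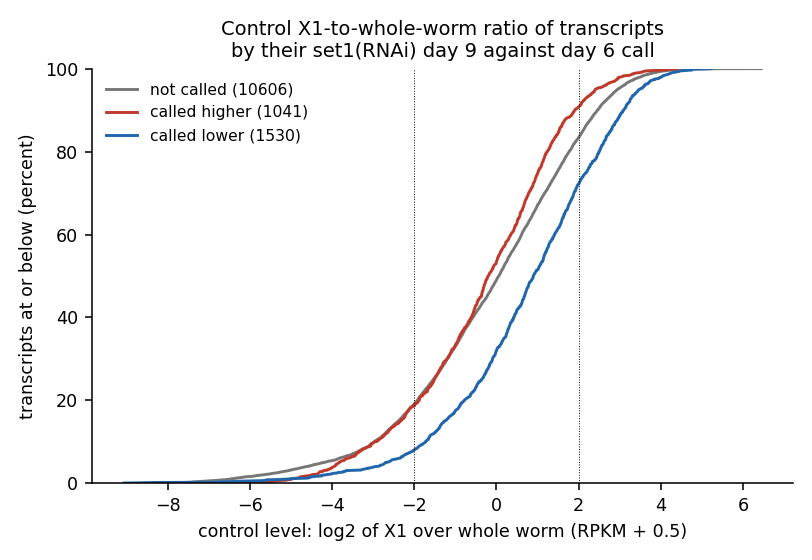
Cumulative share of transcripts (y axis, percent) by the log2 ratio of the control mean in X1 cells to that in whole worms (x axis, RPKM + 0.5, tables normalised separately), for transcripts called higher, called lower or not called between the days. Dotted lines mark a 4-fold ratio in either direction. The median ratio is 0.90 for the falling and -0.19 for the rising transcripts, beside 0.15 for all tested.

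The X1 list as a whole did not move more than in the controls. Its median change was -0.081 on the log2 scale after *set1*(RNAi) and -0.107 in *unc22*(RNAi) cells, and the median over all transcripts tested was -0.029 and -0.025. The interaction passed for 59 of its transcripts upward (2.58%) and 113 downward (4.94%), beside 2.31% and 3.49% of all tested. In all scalings tried, falls outnumbered rises in the X1 list, by 253 to 133 after median scaling, 484 to 289 after quantile normalisation and 471 to 208 with voom, but its median change was 0.00 after median scaling. The share of all RPKM that fell on the X1 list was 54.6% to 57.1% in the day 6 and 55.6% to 57.4% in the day 9 *set1*(RNAi) libraries. The tested transcripts of the whole-worm list took 1.53% to 1.98% at day 6 and 1.46% to 1.79% at day 9. In the control libraries of both days they took 1.36% to 1.81%. Their median difference from *unc22*(RNAi) on the log2 scale was 0.17 at day 6 and 0.18 at day 9. In sorted cells in bulk, fewer cells of a type and less RNA per cell cannot be told apart.

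With the RPKM values as deposited, the share of falls was larger among more abundant transcripts, while the share of rises differed less. When the transcripts were ordered by their control X1 level and divided into 4 classes of equal size, 1.72% fell in the lowest class, which ended at 2.58 RPKM, then 7.52%, 18.1% and 18.4% in the classes above. The shares that rose were 8.65%, 6.58%, 8.41% and 7.82%. Of the 112 rises of at least 2-fold, 85 were in the lowest class and 4 in the highest. The lowest class includes 585 transcripts whose control mean was under 1 RPKM, and these reached a mean of 1 RPKM over the 16 libraries only through higher *set1*(RNAi) levels, so their 102 rises, 44 of them at least 2-fold, against 2 falls were favoured by the filter. The other 2791 transcripts of that class held 190 rises (6.81%), 41 of them at least 2-fold, and 56 falls (2.01%). Reads are fewest in the lowest class, and the part of depth in these shares was not tested. Of the 1884 most abundant transcripts by control X1 level, 138 rose (7.32%) and 324 fell (17.2%). These shares depended on the scaling. After quantile normalisation 21.7% rose and 22.2% fell, beside 14.2% and 11.9% of all tested. With voom 16.6% rose and 21.2% fell, beside 10.7% and 10.3%. After median scaling 8.97% rose and 10.5% fell, beside 10.5% and 7.41%.

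Transcript length moved with the result to a lesser extent. The median change was -0.01, 0.01 and -0.02 in the 3 classes of shorter transcripts and -0.09 in the class of at least 1880 bases. Of the rises of at least 2-fold, 64 were in the class of the shortest transcripts, up to 670 bases, and 5 in the longest. The falls of at least 2-fold were also most frequent in the shortest class, with 56, then 19, 16 and 23 in the longer classes. After a length trend was removed from each library, 1542 rises and 1791 falls passed.

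**Figure D5:**
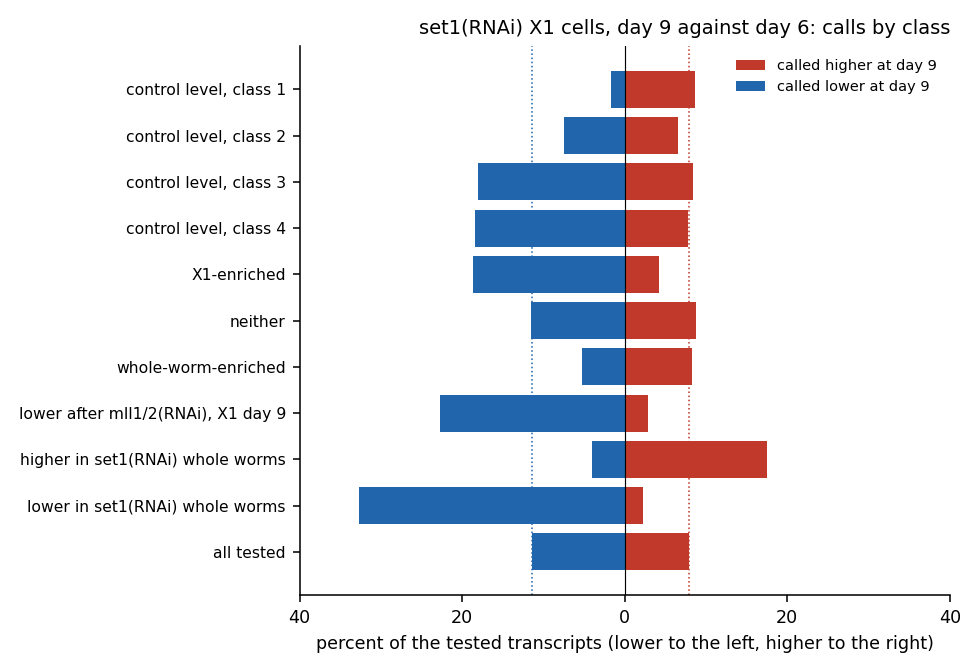
Percent of the tested transcripts called higher (right) or lower (left) at day 9 against day 6 in *set1*(RNAi) X1 cells, by class of control X1 level (class 1 is the lowest) and by transcript list, with dotted lines at the percentages over all transcripts tested. Falls range from 1.72% in the lowest class to 32.7% of the transcripts that also fell in *set1*(RNAi) whole worms.

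Whole worms of the same treatments and days gave a separate set of libraries. In them, 3866 of 19655 transcripts passed between day 9 and day 6 of *set1*(RNAi) (19.7%), 1741 higher (8.86%) and 2125 lower (10.8%), and 6 passed in the controls (0.0305%). Of the 1450 X1 falls that were tested in whole worms, 570 fell there too (39.3%) and 46 rose (3.17%), beside 14.5% and 9.57% of all 11973 transcripts tested in both. The 570 were 32.7% of the 1741 whole-worm falls tested in X1 cells, and the whole-worm falls had a control X1 median of 36.0 RPKM against 8.61 RPKM over all transcripts, so abundance moved with the overlap. Its part in the overlap was not tested. Of the 955 X1 rises tested in whole worms, 200 rose there (20.9%) and 40 fell (4.19%). These 200 were 17.5% of the 1146 whole-worm rises tested in X1 cells. Changes in whole worms were small for the same transcripts, with a median of -0.155 over the X1 falls and 0.076 over the X1 rises.

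The transcripts that were lower after *mll1/2*(RNAi) in X1 cells held more falls and fewer rises between the days of *set1*(RNAi) than all transcripts tested. In that experiment, 420 of 12525 transcripts were lower than *unc22*(RNAi) at day 9 (3.35%), and 415 of them were tested here. Of the 415, 94 fell (22.7%) and 12 rose (2.89%), beside 11.4% and 7.86% of all tested. Their median change was -0.193 on the log2 scale, and -0.094 in the controls of the *set1* experiment, beside -0.029 and -0.025 over all tested. Their difference from *unc22*(RNAi) had a median of -0.32 at day 6 and -0.42 at day 9, so the list stood below the control level on both days.

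The 20 transcripts that fell in *unc22*(RNAi) cells between the days were mostly not X1 transcripts. The whole-worm list held 18 of the 20 and the X1 list 2, and these lists held 17.8% and 17.4% of all transcripts tested. Their control changes lay between -2.35 and -0.55, with a median of -0.96. In *set1*(RNAi) cells, whose day change uses none of those libraries, 17 of the 20 also had a negative change. The median was -0.51 and the range -1.67 to 0.21. As falls, 11 passed the test (55.0%), beside 11.4% of all tested. Both tests use a spread estimated over all 16 libraries, so the calls are not independent. No transcript passed as a rise in the controls with limma on log2(RPKM + 0.5), where 603 rises had an unadjusted p below 0.05. With voom 3 passed as rises, and 57 did after quantile normalisation.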

How the data were processed

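The values were RPKM as deposited by the authors, in separate tables for the X1 cells and whole worms of each experiment. CASAVA 1.8.2, Bowtie and edgeR are named in the submitters' processing notes, without their roles, and the counting of strand and of near-identical transcripts is not given in the sources used here, so paralogs and antisense transcripts may share reads. Whole reads and transcript lengths were recovered from the steps between RPKM values (100% whole within 0.01 read in both *set1* tables, and 99.46% with 117 IDs unsolved in the *mll1/2* X1 table), and the library sizes implied by the deposited *set1* experiment RPKM were 0.946 to 1.15 times the reads recovered.

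Values were analysed as log2(RPKM + 0.5), so the change of low transcripts is understated. The 16 X1 libraries of the *set1* experiment were fitted in limma 3.58.1 (R 4.3.3) with a mean for each of the 4 groups and a trended empirical Bayes variance. Tests were two-sided and adjusted over all 13503 transcripts by the Benjamini-Hochberg method. Whole worms (16 libraries) and *mll1/2* X1 cells were fitted apart in the same way. The *mll1/2* whole-worm table was not used. The script was tested on simulated data.

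Transcripts described singly were called ones of a fixed rule, 28 in all. The rule took the 6 largest changes in each direction without overlap of the groups and with a higher mean of at least 5 RPKM. Also in each direction, it took the 4 most abundant changes of at least 2-fold and the 3 largest within 0.2 of the control at day 6. The last were the 2 largest in each direction that moved against a day 6 difference. The transcripts and lists were chosen with earlier results of these data known. Alternatives were other pseudocounts (0.1 and 1), filters (5 RPKM, none), quantile and median scaling, removal of a length trend, array weights, voom on recovered reads, fits to 8 libraries, a block by column number, and leaving out libraries.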

Additional observations from a re-analysis of the deposited data

Results flagged for a closer look

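Among 112 groups of 4 library values of the 28 transcripts and 24 groups of library-level values, 11 held a library far from the other 3, where chance gives about 1 in 20. The reads of *set1*(RNAi) day 6 library a (13.39 M) and *unc22*(RNAi) day 6 library c (12.62 M) lay below the others of their groups. At day 6 of *set1*(RNAi), library a was low for transcripts of 2169 bases (2.80 RPKM) and 1960 bases (21.5 RPKM), library d was low for 1 of 478 bases (134 RPKM), and library b was high for 1 of 316 bases (2.67 RPKM). In *unc22*(RNAi) cells at day 9, SMED30035655 had 0.323 RPKM in library a and 0 in the other 3. On the same day, a transcript of 363 bases had 1.47 RPKM in library b and 1 of 603 bases had 7.31 RPKM in library d, both high, while 1 of 315 bases had 52.3 RPKM in library a and 1 of 1960 bases had 25.2 RPKM in library d, both low.

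The day change of 783 transcripts differed between *set1*(RNAi) and *unc22*(RNAi) by the interaction test. Among the transcripts described singly there were 22, and these were chosen by the *set1*(RNAi) change that the interaction contains. The difference of the day changes on the log2 scale was 2.25 for SMED30008091, 1.74 for SMED30035655 and, for the other 4 of the largest rises, 2.04, 1.64, 1.55 and 1.46. The value for SMED30035655 depends on the pseudocount, since its control libraries were at or near 0. The 3 other abundant rises had 1.49, 1.99 and 0.74, the 3 rises near the control at day 6 had 1.49, 1.02 and 1.19, and a rise from below the control had 1.2. The difference was -1.44 for SMED30018286 and -1.55, -1.14 and -1.37 for the other 3 of the largest falls that passed. The 4 abundant falls had -0.89, -0.76, -0.76 and -1.0, and a fall from the control level at day 6 had -1.17.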

How the results depend on the processing

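The *set1*(RNAi) day 9 against day 6 counts were 2606 in all, 1062 higher and 1544 lower. With array weights they were 4562, 1958 and 2604. Quantile normalisation gave 1923 higher and 1602 lower, and median scaling gave 1418 higher and 1001 lower. The fit without day 6 library d and day 9 library c, chosen after the data were seen, gave 1760, of which 703 were higher. Leaving out 1 library at a time gave 1827 to 2450 in all, 667 to 1060 higher and 1101 to 1390 lower. The 20 control calls became 10 with array weights, 6 with median scaling, 10 without a filter, 119 with quantile normalisation, 5 with voom, 12 without the 2 libraries above and 2 to 32 without 1 library. With only the 8 *unc22*(RNAi) libraries in the limma fit they were 0, with 1028 at an unadjusted p below 0.05. The 783 interaction calls became 1517 with array weights, 1258 with the length trend removed, 1538 with quantile normalisation, 488 with median scaling, 435 without the 2 libraries and 448 to 953 without 1 library. The causes of these shifts were not tested. All other alternatives kept these counts within 1.5 times.

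Median list changes were most sensitive to scaling. Median scaling gave 0.00 for the X1 list, 0.06 for transcripts in neither list, 0.03 for abundant ones, -0.11 for the *mll1/2* list, 0.20 and -0.16 for the whole-worm rises and falls and 0.05 for all tested. Quantile normalisation gave 0.03 for neither list, 0.16 and -0.18 for the whole-worm rises and falls and 0.01 for all, and removal of the length trend gave 0.02, 0.15, -0.21 and 0.00 for the same 4. A filter of 5 RPKM gave -0.05 for neither list and -0.06 for all. Without 1 library at a time, the medians were -0.11 to -0.04 for the X1 list, -0.06 to 0.03 for the whole-worm list, -0.02 to -0.01 for neither list, -0.07 to -0.02 for abundant transcripts, -0.22 to -0.17 for the *mll1/2* list, 0.11 to 0.13 for the whole-worm rises, -0.24 to -0.22 for the whole-worm falls and -0.03 to -0.02 for all tested. Of 551 refits of the 28 transcripts described singly, 550 kept the direction and the call, and the exception, a transcript of 462 bases, kept its direction. The numbers that end the X1 column names are not tied to the X1 samples by the labels. Used as a replicate block, an alternative chosen after the data were seen, they gave 2325 calls (931 higher, 1394 lower) and 607 for the interaction. Same-numbered *set1*(RNAi) X1 libraries did not deviate together (r of -0.115 to -0.00489 across transcripts), and none of the 4 day 6 libraries correlated best with its own number. In whole worms, same-numbered libraries did not deviate together (r of -0.0668 to 0.151 across transcripts), and a fit with the replicate block gave 4170 calls against 3866 without it, and 3025 to 3811 without 1 library. The 5342 transcripts not tested, whose median level was 0.48 RPKM, had a mean under 1 RPKM over the 16 libraries. Of these, 214 had at least 1 RPKM in all 4 *set1*(RNAi) day 9 libraries. Among them, 3 were under 0.5 RPKM in all *set1*(RNAi) day 6 libraries. The reverse pattern was found for 1 transcript, which was tested and called.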
